A study of Rattus norvegicus with 93 samples.

Results

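Gfap, Vim, Aqp4, Slc1a2, Slc1a3, Gja1, Aldh1l1, S100b and Sox9 are 9 genes that are widely used to mark astrocytes. They were taken by symbol from a table of 38354 genes and followed in 49 of 92 RNA-seq libraries made from the rostromedial tegmental nucleus, RMTg, in outbred rats. The RMTg is a midbrain nucleus of inhibitory neurons that project to dopamine neurons and take part in learning to avoid harm. Polyadenylated RNA was sequenced with 1 library per animal identifier, and the samples form 1 group for which the labels state no treatment, behaviour, genotype, strain, sex or age. The cohort was profiled for genetic analysis, so the comparisons made here run across libraries rather than between treated and control rats. The labels do not say that every library came from a separate animal or dissection, and p-values measure only the spread between these libraries.

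A library was used where Nif3l1 took under 20% of its counts and LOC120093067 plus Zfp532 together took under 10%. The 49 libraries held 9.55 to 50.2 M counts each (M, 1000000), with a median of 19.2 M. Another 32 libraries were over the limit for LOC120093067 plus Zfp532 and 11 over the limit for Nif3l1. They enter only alternative settings named as such, and their levels are described last. Identifiers fall into number series, and a new series was taken to start where neighbouring identifiers differed by over 50000. The used libraries lie in series B (n = 7), C (n = 16), D (n = 12), E (n = 7) and F (n = 7); the labels do not explain the series, which serve here only as possible batches. All 12 genes of a neuron list and all 10 of an oligodendrocyte list passed the filter on low values (20% or more of the libraries at a log2 level of 1 or higher) along with all 9 astrocyte genes. The summed level was 4575 to 6607 counts per 1000000 (CPM) for the neuron list and 33843 to 79031 CPM for the oligodendrocyte list. Transcript length was not corrected for, so the level of one gene is not compared with that of another.

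Astrocytes take up glutamate and potassium around synapses, couple to each other through gap junctions and meet blood vessels with end feet rich in water channels. Their cytoskeleton holds intermediate filaments that increase when the cells react to injury or inflammation. The 9 genes cover these roles: Gfap and Vim encode intermediate filament proteins, Aqp4 the water channel of the end feet, Slc1a2 (GLT-1) and Slc1a3 (GLAST) the glutamate transporters, and Gja1 the gap junction protein connexin 43. Aldh1l1 encodes a folate enzyme, S100b a calcium-binding protein and Sox9 a transcription factor of glial fate.

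The filament gene Gfap varied most over the 49 libraries relative to its mean. Gfap had 48.9 CPM in the lowest library, a median of 106 CPM and 221 CPM in the highest, a 4.51-fold range (116 ± 44.6 CPM, SD, n = 49; coefficient of variation, CV, 38.5%). Counting error alone would give a CV of about 2.40% for Gfap. Among 18749 genes, the SD of Gfap on the log2 scale stood at the 98.4th percentile for its mean level. Vim, the other filament gene, ran from 18.6 over a median of 27.4 to 41.8 CPM, with a CV of 17.1% and an SD at the 47.5th percentile. In bulk tissue, fewer astrocytes and less RNA per astrocyte cannot be told apart, which holds for every level given here.

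Aqp4 also varied widely. Its level was 110 CPM in the lowest library, 226 CPM at the median and 681 CPM in the highest, with the next highest library at 336 CPM; its SD stood at the 95.8th percentile. One library of series C, with 17.5 M counts, held this maximum. The same library ranked 1st for Slc1a2 (786 CPM) and Sox9 (67.9 CPM), 2nd for Vim (38.5 CPM) and 7th for Gfap, Slc1a3 and Gja1, but 18th for S100b and 42nd for Aldh1l1 (9.86 CPM). A second library of series C, with 26.7 M counts, stood at the other end. It was the lowest for Slc1a2 (137 CPM, against 281 CPM in the next lowest), Aqp4 (110 CPM) and Gja1 (89.5 CPM) and ranked 48th for Slc1a3, but it ranked 3rd for Gfap (212 CPM) and 11th for S100b. Several results that turn on either library are given with and without it. Those for the genes nearest to each astrocyte gene are not.

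The glutamate transporter Slc1a2 lay between 137 and 786 CPM with a median of 391 CPM, and the second-highest library had 585 CPM (CV 22.3%, SD percentile 87.9). The other glutamate transporter, Slc1a3, was steadier, with 127 CPM in the lowest library, 199 CPM at the median and 261 CPM in the highest (CV 13.6%, SD percentile 30.9). Gja1 ranged from 89.5 over a median of 182 to 267 CPM (CV 20.1%, SD percentile 84.8). Aldh1l1 was counted with the fewest reads, at least 90 in every library, and spanned 7.61, 12.1 and 20.9 CPM as lowest, median and highest; its CV of 20.2% compares with 6.90% from counting error. S100b varied least for its mean: its lowest, median and highest levels were 2417, 3013 and 4497 CPM, a CV of 13.6% and an SD at the 5.26th percentile. Sox9 went no lower than 20.5 CPM, with a median of 38.3 and a maximum of 67.9 CPM (CV 22.7%, SD percentile 86.4).

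**Figure D1:**
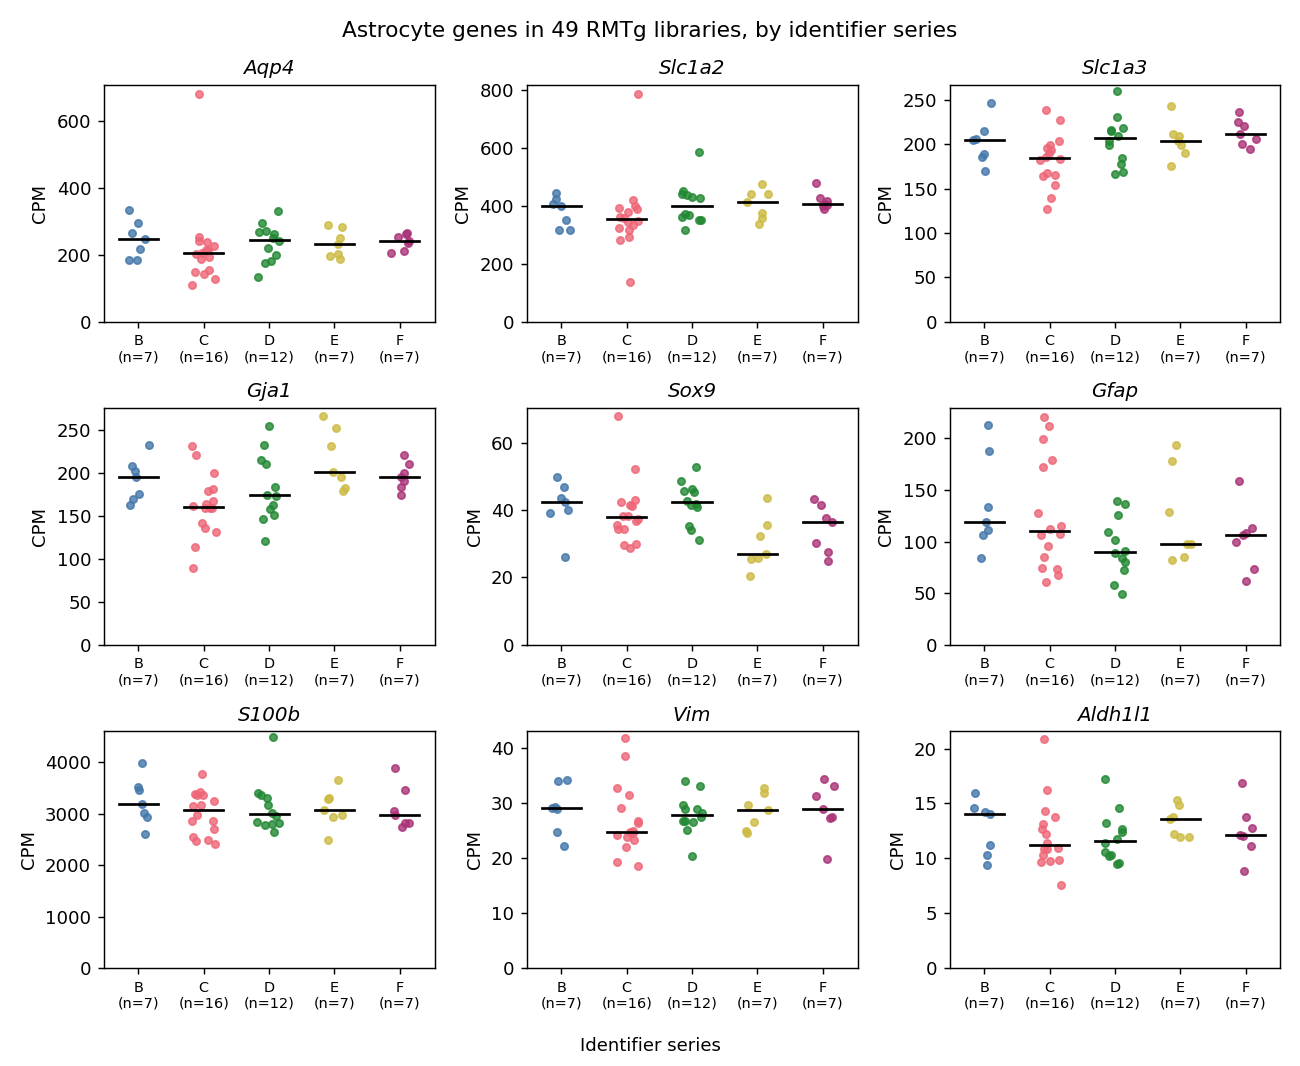
Level of each of the 9 genes in counts per 1000000 (CPM, vertical axis, linear from 0) in the 49 used libraries, by identifier series (horizontal axis); each point is 1 library and each bar a series median. A single library of series C stands far above the others for Aqp4 (681 CPM) and Slc1a2 (786 CPM), and Sox9 has its lowest series median, 27.1 CPM, in series E.

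None of these genes passed a test between identifier series. By limma's F test over the 5 series, 0 of the 9 genes passed an adjusted p under 0.05 (Benjamini-Hochberg over all genes), against a background of 1.71% of 18749 genes; 3 of the 9 had an unadjusted p under 0.05. These 3 were Sox9 (adjusted p = 0.113), Gja1 (adjusted p = 0.146) and Slc1a3 (adjusted p = 0.318). Setting each series against the mean of the other series gave 0 calls in 45 contrasts by limma, with 7 at an unadjusted p under 0.05. In those contrasts 0.16% of all genes passed for series B, 0.811% for C, 0.283% for D, 0.277% for E and 0.379% for F.

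Sox9 averaged 30.04 ± 7.69 CPM in series E, against 41.1 ± 7.58 in B, 39.5 ± 9.59 in C, 42.2 ± 6.28 in D and 34.5 ± 6.96 in F (SD). The log2 difference of series E from the mean of the other series was -0.39 (SE 0.12, adjusted p = 0.213 by limma), and the ranges of the series overlapped. Gja1 averaged 162 ± 36.6 CPM in series C, against 193 ± 24.8 in B, 182 ± 39.1 in D, 216 ± 34.7 in E and 197 ± 16.01 in F, a log2 difference of -0.30 (SE 0.08, adjusted p = 0.0665 by limma). Series C had the lowest median of all series for Vim, Aqp4, Slc1a2, Slc1a3, Gja1 and Aldh1l1, though none of these passed. Without the library of highest Aqp4, which is in series C, the adjusted p of the F test was 0.0578 for Gja1 and 0.0551 for Sox9, and again no gene passed.

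Across libraries, 4 of the 9 genes moved together. Each gene was regressed on the standardized log2 level of each other gene with limma, and a pair was called where both directions passed an adjusted p under 0.05 over all genes. All 6 pairs among Aqp4, Slc1a2, Slc1a3 and Gja1 were called, with Pearson's r between 0.63 and 0.83: the water channel, the glutamate transporters and the gap junction protein rose and fell with one another. Gfap and S100b were also called as a pair (r = 0.63), and Sox9 was called with Aqp4 (r = 0.45) and Slc1a2 (r = 0.37). That made 9 called pairs of 36, all positive; 16 of the 36 had an unadjusted permutation p under 0.05, and 30 of the 36 values of r were above 0 (range -0.24 to 0.83, median 0.21).

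Such calls were common in this tissue, and each count stands beside its background. On the level of Aqp4, 6 of the other 8 genes rose, while 35.3% of all genes were called in either direction, 12.7% rising and 22.6% falling. On Slc1a2, 5 of 8 rose, against 36.4% of all genes called, 13.4% rising and 23% falling. On Slc1a3 it was 3 of 8, against 30.3% called, 17.1% rising and 13.2% falling, and on Gja1 3 of 8, against 31.5% called, 16.4% rising and 15.2% falling. The other fits called fewer genes. Of the other 8 genes, 2 rose with Sox9 (background 14.3% called, 3.34% rising, 11% falling), 1 with Gfap (6.44% called, 2.69% rising, 3.76% falling) and 1 with S100b (7.56% called, 2.83% rising, 4.73% falling). With Aldh1l1, 0 of 8 rose by limma (background 3.05% called, 2.85% rising), and 0 of its 8 pairs had an unadjusted permutation p under 0.05. With Vim, 0 of 8 rose by limma (background 0.00533%, a single gene), although 5 of its 8 pairs had an unadjusted permutation p under 0.05. The share of rising genes among those called depends on the scaling: under median-of-ratios scaling it was 53.3% for Aqp4 (35.99% as reported), 54.3% for Slc1a2 (36.7%), 55.5% for S100b (37.5%) and 48.9% for Sox9 (23.3%).

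**Figure D2:**
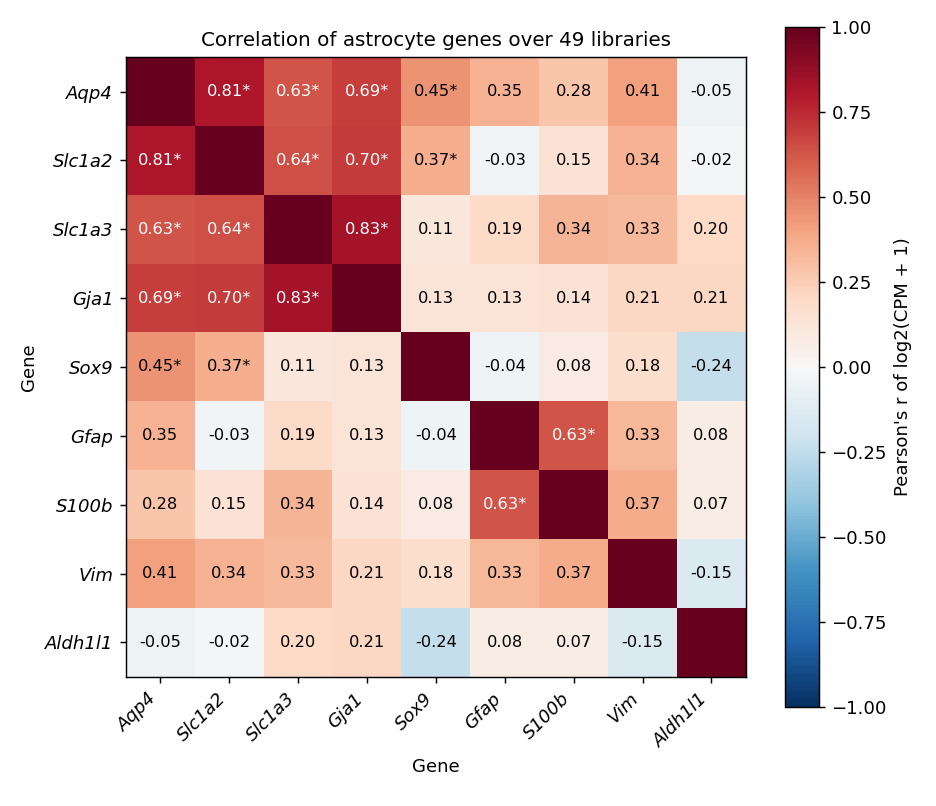
Pearson's r of log2(CPM + 1) for the 36 pairs of the 9 genes over 49 libraries (colour scale from -1 to 1; rows and columns are genes); asterisks mark the 9 called pairs. Aqp4, Slc1a2, Slc1a3 and Gja1 form a block with r of at least 0.63, and Gfap with S100b is another called pair at 0.63.

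Slc1a3 and Gja1 were the most tightly linked pair. Their r was 0.83 and Spearman's rho 0.76 over 49 libraries, each with a permutation p of 1e-05, the smallest that 100000 permutations can give. Per SD of Slc1a3, Gja1 rose by 0.26 on the log2 scale (SE 0.03, adjusted p = 7.3e-10, limma). The sign was positive in all 5 series, with r of 0.90 in B, 0.89 in C, 0.84 in D, 0.62 in E and 0.17 in F. With the 2 libraries most distant from the median of Slc1a3 left out, r was 0.78.

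Aqp4 and Slc1a2 followed with r = 0.81 and rho = 0.71 (permutation p = 1e-05 each), and Slc1a2 rose by 0.27 per SD of Aqp4 (SE 0.03, adjusted p = 9.42e-10, limma). Without the library of highest Aqp4, r was 0.75, and within series it was 0.98 in B, 0.85 in C, 0.67 in D, 0.85 in E and -0.01 in F. Series F showed no such relation, nor did it for Aqp4 with Gja1 (r = 0.69 and rho = 0.68 over all libraries, r = -0.01 in F) and with Slc1a3 (r = 0.63 and rho = 0.64 over all libraries, r = -0.16 in F). Slc1a2 with Gja1 had r = 0.70 over all libraries (rho = 0.63), with 0.94 in B, 0.88 in C, 0.26 in D, 0.83 in E and -0.54 in F. Slc1a2 with Slc1a3, the 2 glutamate transporters, had r = 0.64 and rho = 0.66, and r was positive in every series (0.80, 0.73, 0.21, 0.39 and 0.53 from B to F). The permutation p of these 4 pairs was at most 2e-05 for r and 1e-05 for rho. The values for series F rest on 7 libraries, where Aqp4 had its narrowest spread (204 to 265 CPM). All 6 pairs among these genes were called under each of 15 other settings tried within the 49 libraries.

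Gfap and S100b, a filament protein and a calcium-binding protein, were linked in every series: r was 0.92 in B, 0.76 in C, 0.41 in D, 0.73 in E and 0.68 in F. Over all libraries r was 0.63 and rho 0.68 (permutation p = 1e-05 each), and 0.62 without the 2 farthest libraries. Per SD of Gfap, S100b rose by 0.12 on the log2 scale (SE 0.03, adjusted p = 0.00572, limma), and the call was kept under all 15 settings. Gfap had r = -0.03 with Slc1a2, 0.19 with Slc1a3 and 0.13 with Gja1 (rho of 0.16, 0.27 and 0.25; permutation p of r 0.87, 0.19 and 0.36), and none of these pairs was called. With the library of lowest Slc1a2 left out, r was 0.20 with Slc1a2, 0.32 with Slc1a3 and 0.31 with Gja1, again with no pair called. S100b had r = 0.28 with Aqp4, 0.15 with Slc1a2 and 0.34 with Slc1a3 over the 49 libraries. The rho values were 0.42, 0.35 and 0.38 (permutation p of 0.0026, 0.014 and 0.0073). None of these pairs was called, nor was S100b with Gja1 (adjusted p = 0.505 on Gja1, limma). Whether Gfap correlates less with the transport genes than with S100b was not tested, nor whether S100b correlates less with them than with Gfap.

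Sox9 was less firmly tied to the transport genes. It rose by 0.15 per SD of Aqp4 (SE 0.04, adjusted p = 0.00454 and, in the other direction, 0.0117, limma), with r = 0.45 (permutation p = 0.0013), rho = 0.31 (p = 0.031) and a positive sign in all 5 series. Without the library of highest Aqp4, r was 0.31 and the larger adjusted p of both directions 0.153. With Slc1a2 it had r = 0.37 (permutation p = 0.010) and rho = 0.21 (p = 0.15), and r = 0.23 with an adjusted p of 0.312 without that library. With the library of lowest Slc1a2 left out, the larger adjusted p of this pair was 0.0581. The first call was kept under 11 of 15 settings and the second under 4 of 15.

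Gfap and Vim each had a link to the transport genes in 1 direction of the fit. Gfap rose with Aqp4 (0.19 per SD of Aqp4, SE 0.07, adjusted p = 0.0290 by limma, r = 0.35, rho = 0.455), whereas Aqp4 on Gfap gave an adjusted p of 0.0829. This pair was called without the library of lowest Slc1a2, where r was 0.49, the slope of Aqp4 on Gfap 0.19 and the larger adjusted p of both directions 0.0125 (limma). So was Slc1a3 with S100b (r = 0.41, larger adjusted p = 0.0442). Vim rose with Aqp4 (0.10, SE 0.03, adjusted p = 0.0143, r = 0.41, rho = 0.36) and with Slc1a2 (0.08, SE 0.03, adjusted p = 0.0428, r = 0.34, rho = 0.30) by limma, but neither gene passed on Vim; the permutation p of r was 0.012, 0.0039 and 0.016 for these 3 pairs. For Vim, r was 0.32 with Aqp4 and 0.25 with Slc1a2 when the library of highest Aqp4 was left out. These values were 0.37 and 0.29 without the library of lowest Slc1a2. The slopes of Vim are not given without either library, on which these calls may partly rest. Aldh1l1, the folate enzyme, had r between -0.24 (Sox9) and 0.21 (Gja1) with the other genes.

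**Figure D3:**
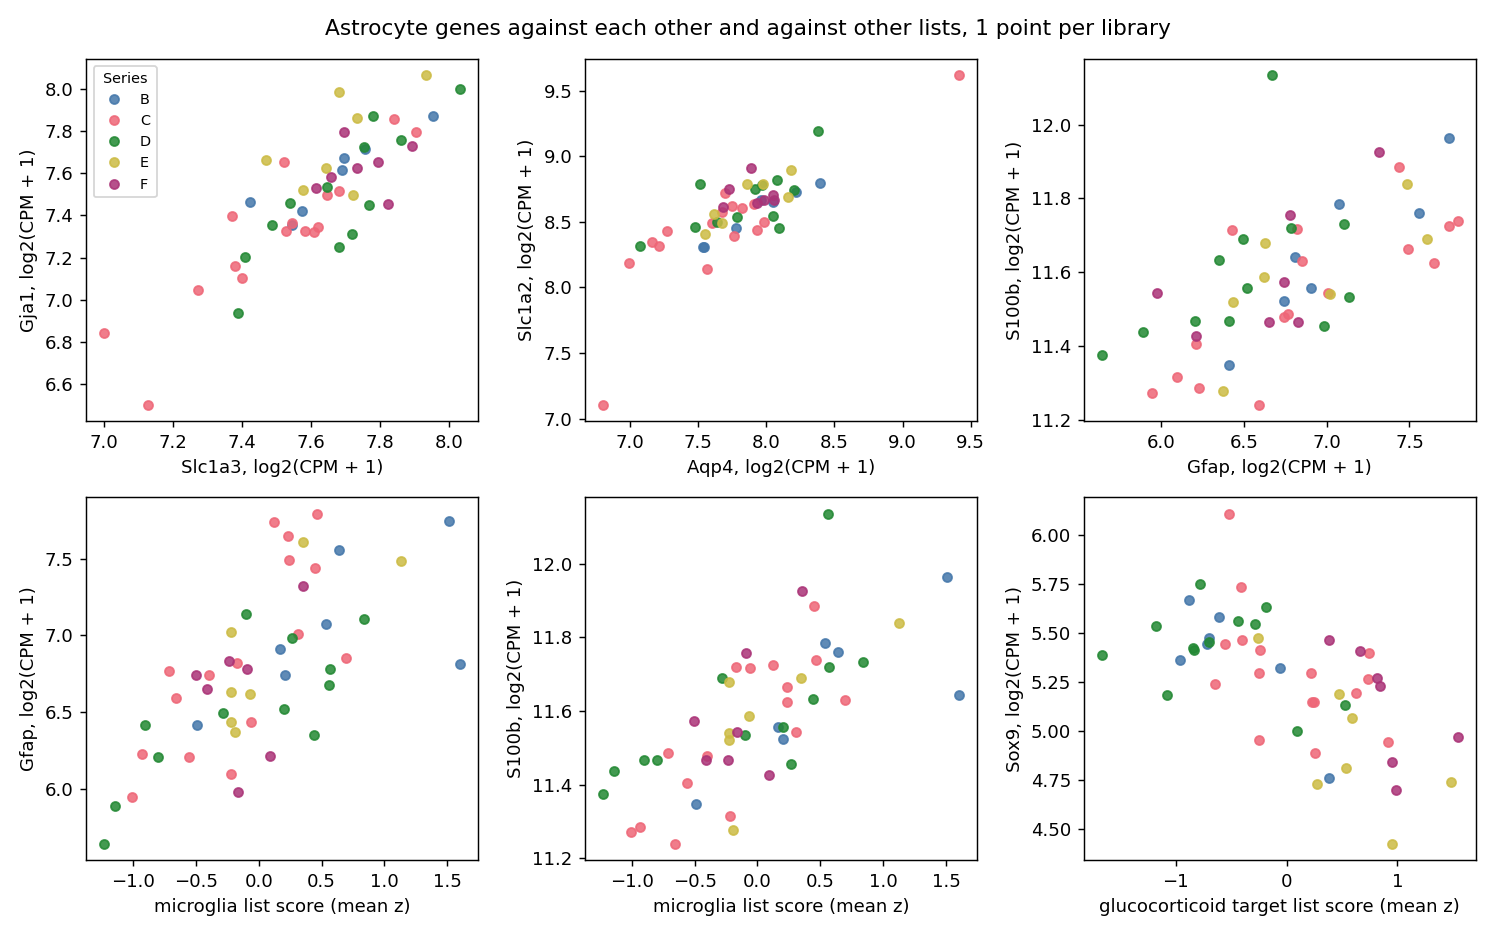
Selected relations over the 49 libraries, 1 point per library coloured by identifier series; upper row, pairs of astrocyte genes, both axes log2(CPM + 1); lower row, Gfap and S100b against the microglia list score and Sox9 against the glucocorticoid target list score (mean z-score on the horizontal axis). Slc1a3 with Gja1 (r = 0.83) and Gfap with S100b (r = 0.63) climb together, and Sox9 descends with the glucocorticoid target score (r = -0.64).

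Promoter windows are shown for the genes of the pairs Slc1a3 with Gja1 and Gfap with S100b, both called and positive in every series. The pairs Slc1a2 with Slc1a3 and Sox9 with Aqp4 were too, but windows of Slc1a2, Sox9 and Aqp4 are not shown. A window runs from 250 bases before to 50 bases after a transcript start, and one was matched for 8 of the 9 genes (RefSeq, build GRCr8). The Slc1a3 window is chr2:59557759-59558058 (minus strand) and the Gja1 window chr20:36302314-36302613 (plus strand). The Gfap window is chr10:88361612-88361911 (minus strand) and the S100b window chr20:12381032-12381331 (minus strand). Capitals mark a nuclear factor I motif (TTGGCA, or TGCCAA on the other strand) or a SOX core (ACAAAG); the windows are written 5′ to 3′ on the gene's strand.
Slc1a3: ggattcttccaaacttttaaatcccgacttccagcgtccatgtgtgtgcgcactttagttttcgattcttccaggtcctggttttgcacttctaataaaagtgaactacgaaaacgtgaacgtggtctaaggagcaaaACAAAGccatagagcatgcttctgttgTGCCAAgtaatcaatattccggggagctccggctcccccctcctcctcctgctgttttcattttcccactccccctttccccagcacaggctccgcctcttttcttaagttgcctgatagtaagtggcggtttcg
Gja1: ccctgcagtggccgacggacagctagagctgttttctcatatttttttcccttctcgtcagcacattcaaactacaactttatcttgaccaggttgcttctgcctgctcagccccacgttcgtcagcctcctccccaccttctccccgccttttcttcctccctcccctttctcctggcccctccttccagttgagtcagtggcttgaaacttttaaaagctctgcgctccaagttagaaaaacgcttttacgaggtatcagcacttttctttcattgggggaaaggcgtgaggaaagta
Gfap: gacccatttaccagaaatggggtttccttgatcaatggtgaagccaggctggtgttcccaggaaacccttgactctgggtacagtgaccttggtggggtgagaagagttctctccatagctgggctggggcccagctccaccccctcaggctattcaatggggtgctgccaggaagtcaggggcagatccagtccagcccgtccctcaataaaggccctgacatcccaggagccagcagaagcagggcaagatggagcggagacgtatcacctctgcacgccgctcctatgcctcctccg
S100b: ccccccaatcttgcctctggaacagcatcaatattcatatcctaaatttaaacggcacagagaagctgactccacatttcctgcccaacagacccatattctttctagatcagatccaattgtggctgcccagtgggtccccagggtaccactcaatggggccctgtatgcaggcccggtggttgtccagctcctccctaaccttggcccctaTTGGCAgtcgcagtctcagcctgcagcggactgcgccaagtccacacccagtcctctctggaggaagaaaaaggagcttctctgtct
Both strands of each window were searched. The Slc1a3 window held 1 nuclear factor I motif, which starts 85 bases before the transcript start, and 1 SOX core, which starts 112 bases before it. The S100b window held 1 nuclear factor I motif, 37 bases before its start, and the Gja1 and Gfap windows held neither motif. Over the genes, 2 of 8 windows held the nuclear factor I motif, against 13.98% of 33469 promoter windows, and 1 of 8 held the SOX core, against 18.8%. A STAT site (TTCNNNGAA) was in 0 of 8, against 8.87% of all windows, and a TATA box (TATAAA) in 1 of 8, that of Vim, against 14.2%. The motifs share no letters in these windows, and a match says only that the letters occur.

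Of the 9 fits, those on Slc1a3 and Gja1 called the most rising astrocyte transport genes. A list of 12 astrocyte transport genes had 9 members rising and 0 falling with Slc1a3, and 8 rising and 0 falling with Gja1, against 17.1% and 16.4% of all genes rising. Among them were Gjb6, which encodes connexin 30 (0.24 per SD of Slc1a3, SE 0.04, adjusted p = 1.57e-06, limma), the bicarbonate transporter gene Slc4a4 (0.21, SE 0.04) and the potassium channel gene Kcnj10 (0.11, SE 0.03). The median slope on Slc1a3 was 0.14 for the list and 0.00 for all genes. With Aqp4 5 of the 12 rose and 1 fell, against 12.7% of all genes rising and 22.6% falling, and with Slc1a2 likewise 5 rose and 1 fell, against 13.4% and 23%; the amino acid transporter gene Slc38a3 was the one that fell in both fits (-0.12 and -0.11 per SD), though not in either without the library of highest Aqp4. With Sox9 1 rose and 2 fell, against 3.34% of all genes rising and 11% falling. With Gfap 1 rose, against 2.69%, with S100b 2, against 2.83%, and with Aldh1l1 2, against 2.85%. With Vim 0 rose by limma (0.00533% of all genes rising), and 3 of the 12 had an unadjusted p under 0.05. Markers of other cell types also rose with Slc1a3 and Gja1. With Slc1a3 it was 5 of 10 oligodendrocyte, 5 of 11 microglial and 5 of 11 endothelial and mural genes, against 17.1% of all genes. With Gja1 it was 4 of 10, 2 of 11 and 4 of 11, against 16.4%, and 0 of these markers fell in either fit. Of 12 neuron genes 0 rose and 1 fell with Slc1a3, and 1 rose and 1 fell with Gja1.

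Secreted-protein genes of astrocytes were called most often with Slc1a3, and metabolic genes equally often with Slc1a3, Gja1 and Aqp4. Of 11 secreted-protein genes that passed the filter, out of 12 listed, 8 rose and 0 fell with Slc1a3, against 17.1% of all genes rising, among them Gpc4, a heparan sulfate proteoglycan that acts on synapses (0.26, SE 0.04, adjusted p = 1.6e-05, limma), Sparcl1 and Timp3. With the neuron and oligodendrocyte scores as covariates 4 of the 11 rose, and with series as a covariate 5. With Gja1 5 of the 11 rose and 0 fell, against 16.4% rising. With Slc1a2 4 rose and 1 fell, against 13.4% of all genes rising and 23% falling. With Aqp4 3 rose and 1 fell, against 12.7% rising and 22.6% falling. Itih3, which encodes a protein that binds hyaluronan, was the one that fell in both fits. It fell by 0.14 per SD of Slc1a2 (adjusted p = 0.0195, limma) and 0.15 per SD of Aqp4 (adjusted p = 0.0168, limma). In the absence of the library of lowest Slc1a2, 2 rose with Slc1a2 and 1 with Aqp4, and with the 2 libraries most distant from the median left out 0 rose with Slc1a2 and 1 with Aqp4; 0 fell in these fits by limma. For Slc1a2 3 had an unadjusted p under 0.05 in each of these settings, and for Aqp4 4 and 2. Apoe, the main lipid carrier of the brain, did not pass on Slc1a3 (0.09, SE 0.04, adjusted p = 0.134, limma), but it rose with Gfap (0.18, SE 0.04, adjusted p = 0.00781) and S100b (0.22, SE 0.04, adjusted p = 2.09e-04). Of 12 metabolic genes 5 rose with Slc1a3 (17.1% of all genes rising), 5 with Gja1 (16.4%), 5 with Aqp4 (12.7%) and 4 with Slc1a2 (13.4%), and none fell in those 4 fits. Glud1, the glutamate dehydrogenase that breaks glutamate down, rose by 0.18 per SD of Slc1a3 (SE 0.02, adjusted p = 2.3e-08, limma).

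Genes of reactive astrocytes were counted in the same fits. Of 18 listed, 12 passed the filter, and at most 2 rose in any of the 9 fits: Cd44 and Hspb1 with Slc1a2 (0.15 and 0.19 per SD), a fit in which Stat3 fell (-0.08), against 13.4% of all genes rising and 23% falling. With Gfap, itself a marker of reactive astrocytes, 0 of the 12 rose or fell by limma, against 2.69% of all genes rising and 3.76% falling, and 0 had an unadjusted p under 0.05. Serpina3n, a widely used marker of this state, had 0 counts in 33 of the 49 libraries and at most 0.356 CPM, and Lcn2 had at most 0.951 CPM. The summed level of the whole list was 56.1 to 78.3 CPM. Most of the 12 tested genes were low too. Their medians were 0.956 CPM for Emp1, 1.61 for Cd44, 1.63 for Gbp2, 1.81 for Ptx3 and 1.89 for Timp1. Osmr had 1.91 CPM, S1pr3 2.12, Nes 2.16 and Synm 3.16, against 7.16 for Hspb1, 7.47 for Cp and 29.2 for Stat3. The counts for this list thus rest largely on genes near the pseudocount of 1 CPM.

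Over the 49 libraries microglial genes rose most often with Gfap and S100b. Of 11 microglial markers 7 rose and 0 fell with Gfap, against 2.69% of all genes rising, including Csf1r, the receptor that keeps microglia alive (0.19, SE 0.04, adjusted p = 0.00263, limma), the fractalkine receptor gene Cx3cr1 (0.16, SE 0.04) and Trem2 (0.18, SE 0.05). With S100b 6 of 11 rose and 0 fell, against 2.83%, and Aif1 had the smallest adjusted p (0.22, SE 0.04, adjusted p = 3.96e-04). The count for Gfap was 2 of 11 with log10 of the library total as a covariate (1.03% of all genes rising), 2 of 11 with the neuron and oligodendrocyte scores as covariates (0.693%), and 1 of 11 with the 2 libraries most distant from the median of Gfap left out (0.677%). For S100b it lay between 6 and 8 in the 15 settings. Microglial genes rose in other fits too, with 5 of 11 on Slc1a3 (17.1% of all genes rising) and 4 on Aqp4 (12.7%). It was 3 on Slc1a2 (13.4%) and 2 on Gja1 (16.4%), and 0 fell in these 4 fits. The part of microglia in the levels of Gfap and S100b was not tested.

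**Figure D4:**
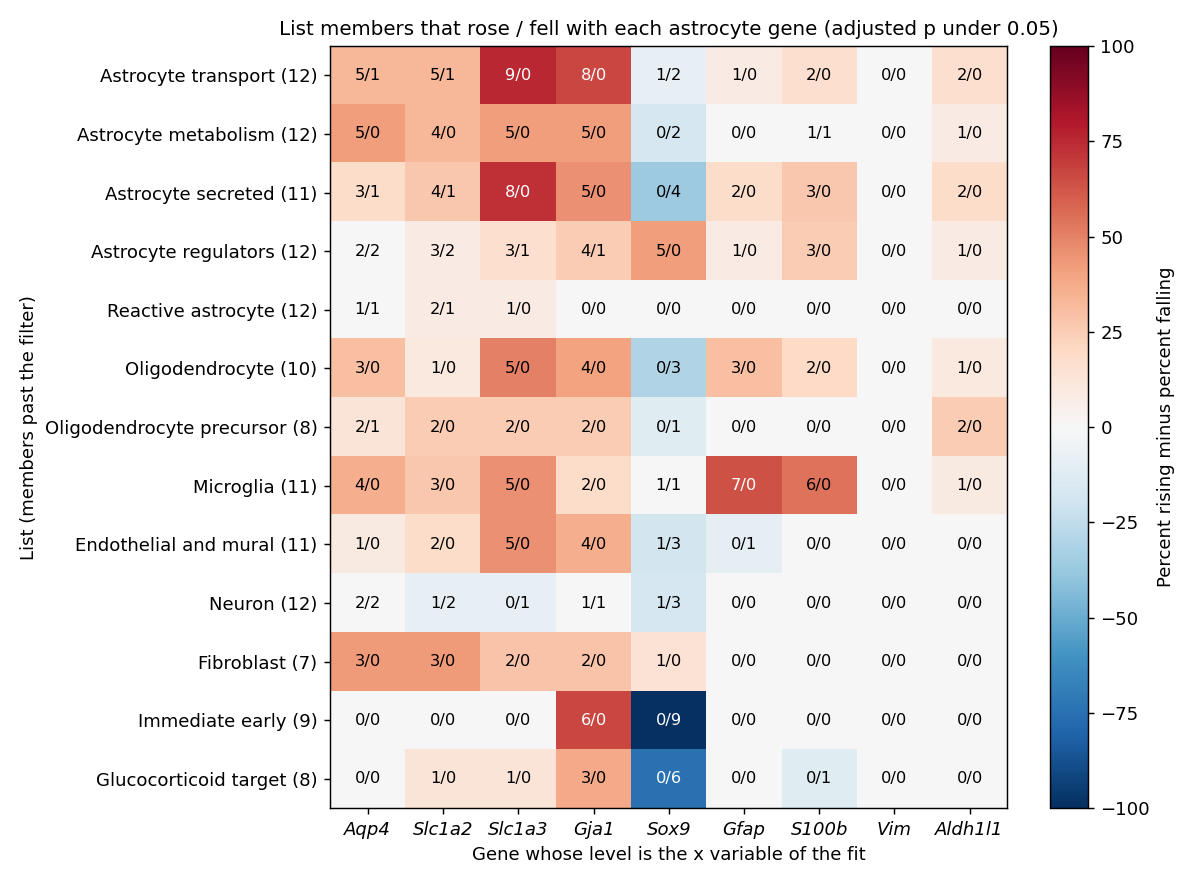
Members of 13 gene lists (rows, with the number past the filter) that rose or fell at an adjusted p under 0.05 with the level of each astrocyte gene (columns); each cell gives rising and falling counts, and colour gives percent rising minus percent falling. Slc1a3 and Gja1 have the most rising transport genes (9 and 8 of 12), Gfap and S100b the most rising microglial genes (7 and 6 of 11), and all 9 immediate early genes fall with Sox9.

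Scores of the other cell types were then used as predictors. Each score averages the z-scores of the log2 levels of the list members that passed the filter, and 12 of 81 combinations of gene and score passed. On the microglia score, 3 of the 9 genes rose, against 2.83% of all genes called and 2.44% rising. Gfap rose by 0.35 per SD of that score (SE 0.05, adjusted p = 3.21e-05, limma; r = 0.67, rho = 0.68, permutation p = 1e-05 each), and r within series was 0.61, 0.74, 0.78, 0.77 and 0.26 from B to F. This call was kept under all 15 settings, with slopes of 0.33 to 0.38 and adjusted p of at most 0.00154. S100b rose by 0.13 (SE 0.03, adjusted p = 9.56e-04; r = 0.70, rho = 0.75, permutation p = 1e-05 each), with r of 0.76, 0.79, 0.68, 0.72 and 0.59. Slc1a3 rose by 0.11 (SE 0.03, adjusted p = 0.0108; r = 0.54, rho = 0.53, permutation p = 1.5e-04 each), with an adjusted p of 0.181 when the neuron and oligodendrocyte scores were covariates. The summed level of the microglial markers was 340 to 640 CPM, and C1qa had 34.1 to 118 CPM.

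On the oligodendrocyte score, 3 of 9 rose, against 24.3% of all genes called and 15.5% rising: Gfap by 0.21 (SE 0.07, adjusted p = 0.0146), Slc1a3 by 0.10 (SE 0.03, adjusted p = 0.00450) and Aldh1l1 by 0.10 (SE 0.04, adjusted p = 0.0263), all by limma. Only Slc1a3 of these kept its call under all 15 settings within the 49 libraries. Aldh1l1 was the 1 gene of 9 that rose on the score of oligodendrocyte precursors (0.13, SE 0.03, adjusted p = 0.0479, limma), against 0.934% of all genes called and 0.838% rising, and that call was kept in 6 of 15 settings. On the endothelial and mural score 2 of 9 rose, against 15.5% of all genes called and 11.7% rising: Slc1a3 by 0.10 and Gja1 by 0.13 (adjusted p = 0.0104 and 0.0166, limma). With series as a covariate neither passed (adjusted p = 0.154 and 0.323), without the library of lowest Slc1a2 Gja1 did not (0.0627), and r within series F was -0.22 and -0.05.

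On the fibroblast score 0 of 9 passed by limma (background 0.0427%), with 4 of 9 at an unadjusted p under 0.05, the smallest for Aqp4 (0.18 per SD, SE 0.05, adjusted p = 0.201). On the ependymal score, for which 4 of 7 listed genes passed the filter, 0 of 9 passed and 0 of 9 had an unadjusted p under 0.05 by limma (background 0%). Their part in the levels of the astrocyte genes was not tested beyond these slopes.

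Sox9 was called on 3 scores, each time falling. It fell by 0.21 on the log2 scale per SD of the glucocorticoid target score (SE 0.04, adjusted p = 1.64e-04, limma; r = -0.64, rho = -0.66, permutation p = 1e-05 each). It was the 1 gene of 9 called there, against 2.99% of all genes called and 0.55% falling. The sign was negative in every series, with r of -0.84, -0.50, -0.31, -0.69 and -0.66 from B to F. With the 2 most distant libraries left out r was -0.65, and the call was kept under all 15 settings within the 49 libraries. Over the 32 libraries high in LOC120093067 and Zfp532 the slope was positive (0.38, adjusted p = 0.02, limma). Of 8 glucocorticoid target genes, 6 fell and 0 rose with Sox9, against 11% of all genes falling: Cdkn1a by 0.30 (SE 0.06, adjusted p = 0.00129), the kinase gene Sgk1 by 0.47 (SE 0.09), the clock gene Per1 by 0.24 (SE 0.05), the receptor cochaperone gene Fkbp5 by 0.26 (SE 0.06), Errfi1 by 0.25 (SE 0.05) and Tsc22d3 by 0.13 (SE 0.04). With the neuron and oligodendrocyte scores as covariates 1 of the 8 fell, with 6 at an unadjusted p under 0.05 (0.0427% of all genes falling), and with series as a covariate 3 (8.98%). Fkbp5 ran from 13.4 over a median of 22.7 to 46.5 CPM.

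All 9 immediate early genes that passed the filter, of 10 listed, fell with Sox9, against 11% of all genes falling. Among them were Fos (adjusted p = 0.00490, limma) and Dusp1 (adjusted p = 6.31e-04, limma). Fos had 3.31 CPM in the lowest library, 10.2 CPM at the median and 227 CPM in the highest, and libraries fall into separate clusters by this score. Sox9 was the 1 gene of 9 called on this score over all 49 libraries, against 15.2% of all genes called and 9.28% falling. That fit and those of the single genes on Sox9 span the clusters, so their sizes are not given. The r of Sox9 with this score within series was -0.56, -0.24, -0.22, -0.34 and -0.42 from B to F. With series as a covariate the adjusted p was 0.382 and 1 of the 9 genes fell; with the neuron and oligodendrocyte scores as covariates 0 of 9 fell by limma, with 8 at an unadjusted p under 0.05. Over all genes, 70 were called on this score with series as a covariate, against 2852 without. The parts of series and of immediate early genes in the level of Sox9 were not tested apart. Gja1 went the other way, with 6 of 9 immediate early genes rising, against 16.4% of all genes rising. With series as a covariate 0 rose by limma, with 1 at an unadjusted p under 0.05, and with Xist and Ddx3y as covariates 1 rose.

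On the neuron score Sox9 fell by 0.14 (SE 0.04, adjusted p = 0.0383, limma), 1 of 9 genes called against 6.34% of all genes called and 2.21% falling; it was kept under 9 of 15 settings, and r in series D was 0.24. Among regulators of glial fate, 5 of 12 rose and 0 fell with Sox9, against 3.34% of all genes rising: the Notch target gene Hes5 (0.22, SE 0.06), the stem cell factor gene Sox2 (0.11, SE 0.03), the nuclear factor I genes Nfia (0.09) and Nfib (0.10), and Rorb (0.19, SE 0.07). Without the library of highest Aqp4, 2 of the 12 rose, without the 5 libraries least correlated with the others 2 and with series as a covariate 3. With the neuron and oligodendrocyte scores as covariates 0 rose by limma, with 3 at an unadjusted p under 0.05. In the same fit 4 of 11 secreted-protein genes fell and 0 rose, Htra1 by 0.23 and Clu by 0.16, against 11% of all genes falling. With the neuron and oligodendrocyte scores as covariates 0 of the 11 fell by limma, with 4 at an unadjusted p under 0.05, and without the library of highest Aqp4 or without the 5 least correlated libraries 2 fell.

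Library measures were set beside the genes as technical descriptors. On log10 of the library total, 0 of 9 passed by limma, with 2 of 9 at an unadjusted p under 0.05 (Gfap and Aqp4; background 0.0107%). On log2 of the percent of counts taken by LOC120093067 and Zfp532 within the 49 libraries, Slc1a3 fell by 0.10 per SD (SE 0.03, adjusted p = 0.00444, limma; r = -0.49, rho = -0.48, permutation p = 3.7e-04 and 6.9e-04), 1 of 9 against 23.7% of all genes called and 15.9% falling. On the difference between a score of long neuronal genes and a score of respiratory chain genes, 3 of 9 fell, against 25.8% of all genes called and 7.09% falling. Slc1a2 fell by 0.18 (SE 0.04, adjusted p = 7.54e-04, limma; r = -0.53, rho = -0.42, permutation p = 0.0011 and 0.0024), Aqp4 by 0.14 (SE 0.05, adjusted p = 0.0465; r = -0.34, rho = -0.35, permutation p = 0.022 and 0.013) and S100b by 0.09 (SE 0.03, adjusted p = 0.0134; r = -0.47, rho = -0.46, permutation p = 8.7e-04 and 0.0011). The call for Aqp4 was kept in 8 of 14 settings, and r in series D was 0.42 for Aqp4 and 0.11 for Slc1a2. Neither passed without the library of lowest Slc1a2, where the slope was -0.08 for Slc1a2 (adjusted p = 0.0762, limma; r = -0.29) and -0.08 for Aqp4 (adjusted p = 0.299; r = -0.19). In single-gene terms 11 of 12 respiratory chain genes rose with Slc1a2, Ndufa4 by 0.33 (SE 0.04), against 13.4% of all genes rising. The count was 1 of 12 with the 2 libraries most distant from its median left out (7.22% of all genes rising), 2 of 12 without the 5 libraries least correlated with the others (1.49%) and 3 of 12 without the library of lowest Slc1a2 (8.65%). Respiratory chain genes also rose with Gja1 (7 of 12, against 16.4% of all genes rising) and Aqp4 (6 of 12, against 12.7%). With Slc1a3 it was 2 of 12, against 17.1%, and 0 fell in these 3 fits. With S100b, 7 of 12 long neuronal genes fell, against 4.73% of all genes falling. Under median-of-ratios scaling 3 of the 12 fell, and 875 genes in all. Whether composition of the library underlies the calls among the astrocyte genes was not tested.

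The genes most like each astrocyte gene differed between them. Slc1a2 was followed most closely by Cmbl, which encodes a hydrolase (r = 0.91; 0.28 per SD, SE 0.02, adjusted p = 3.01e-14, limma), and Mpc1, a mitochondrial pyruvate carrier gene, was also among its nearest genes (r = 0.81). Aqp4 had Aldh6a1, an enzyme of valine breakdown (r = 0.84), Tmem47 (0.84) and Pnrc2 (0.83), and the splicing factor gene Prpf40b fell with it (r = -0.81). Slc1a3 had Glud1 (r = 0.82), the tetraspanin gene Tspan3 (0.80) and the Wnt carrier gene Wls (0.80), and Gja1 had the lipase gene Abhd3 (0.86), the cargo receptor gene Tmed7 (0.82) and again Glud1 (0.81). The splicing genes Srrm3 (r = -0.67) and Srrm2 (r = -0.71) fell with Slc1a3 and Gja1, and Pced1a fell with Slc1a2 (r = -0.85).

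The nearest genes of Gfap were the lysosomal genes Laptm5 (r = 0.71) and Npc2 (0.67) and the leukocyte tetraspanin gene Cd37 (0.65), and the calcium pump gene Atp2b1 fell with it (r = -0.70). S100b was followed by Tmem176a (r = 0.76), Dap (0.73) and Tmem176b (0.69), and the potassium channel gene Kcnj3 fell with it (r = -0.72). Sox9 had Sash1 (r = 0.62), Zfp791 (0.60) and the N-cadherin gene Cdh2 (0.60), with Impdh2, an enzyme of guanine nucleotide synthesis, falling (r = -0.72). Aldh1l1 had the thyroid hormone receptor gene Thra (r = 0.65), Slc22a17 (0.62) and the fatty acid transporter gene Slc27a1 (0.62), with Dnajc21 falling (r = -0.58). Tagln, an actin-binding protein of smooth muscle, was the 1 gene called on Vim (r = 0.67; 0.30 per SD, SE 0.05, adjusted p = 7.3e-04, limma). Likeness is Pearson's r over 49 libraries, among called genes whose sign was the same in all 5 series. It is not given without the library of highest Aqp4 or of lowest Slc1a2, on which the values for Aqp4 and Slc1a2 may partly rest.

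Some genes rose in several of the 9 fits. Of the other genes tested, 13055 rose in 0 of the 9 fits, 2038 in 1, 1315 in 2, 792 in 3, 1412 in 4, 118 in 5, 10 in 6 and 0 in 7 or more; the fit on Vim called a single gene. These 10 were Anxa3, Ldlrad3, Sh3glb1, Car2, Gjb2, Acaa2, Ctss, Naaa, Id3 and Pir, with a mean r over the fits of 0.38 to 0.47. Gjb2 encodes connexin 26, Car2 carbonic anhydrase, Ctss a cathepsin of microglia and Id3 a regulator that was on the list of glial factors.

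The libraries left out held the same genes at other levels, given with no test between the kinds of library, which were set apart by their composition. In the 32 libraries high in LOC120093067 and Zfp532 (2.29 to 13.7 M counts), the median of S100b was 461 CPM, against 3013 in the 49, that of Gfap 33.4 CPM, against 106, and that of Slc1a3 89.7 CPM, against 199. The medians of Vim (7.69 CPM, against 27.4) and Aldh1l1 (3.25 CPM, against 12.1) were likewise lower in the 32. For each of these genes the range in the 32 overlapped that of the 49. The highest levels in the 32 were 5464 CPM for S100b, 160 for Gfap, 202 for Slc1a3, 38.9 for Vim and 12.5 for Aldh1l1. Gja1 was nearly level (188 CPM, against 182), Aqp4 had 189 CPM, against 226, and Sox9 was higher, at 121 CPM (20.3 to 319), against 38.3. Slc1a2 had a median of 489 CPM in the 32 and reached 5804 CPM in one of them.

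In the 11 libraries high in Nif3l1 (1.72 to 8.43 M counts), 8 of the 9 genes were lower in every library than in any of the 49. Aldh1l1 had 0 counts in 8 of 11 and Vim in 7 of 11, and the medians of Gfap, Sox9, Slc1a3, Gja1, Aqp4 and S100b were 0.949, 0.661, 1.73, 2.75, 3.21 and 11.4 CPM. Slc1a2 was the exception, with 6265 to 19047 CPM and a median of 13139 CPM, against 391 CPM in the 49. No Slc1a2 value of the 11 overlapped those of the 49, whose highest was 786 CPM. The 11 libraries had counts for only 3004 to 14284 genes each, against 23690 to 28273 in the 49. Their CPM values are shares of a much narrower set of genes.

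**Figure D5:**
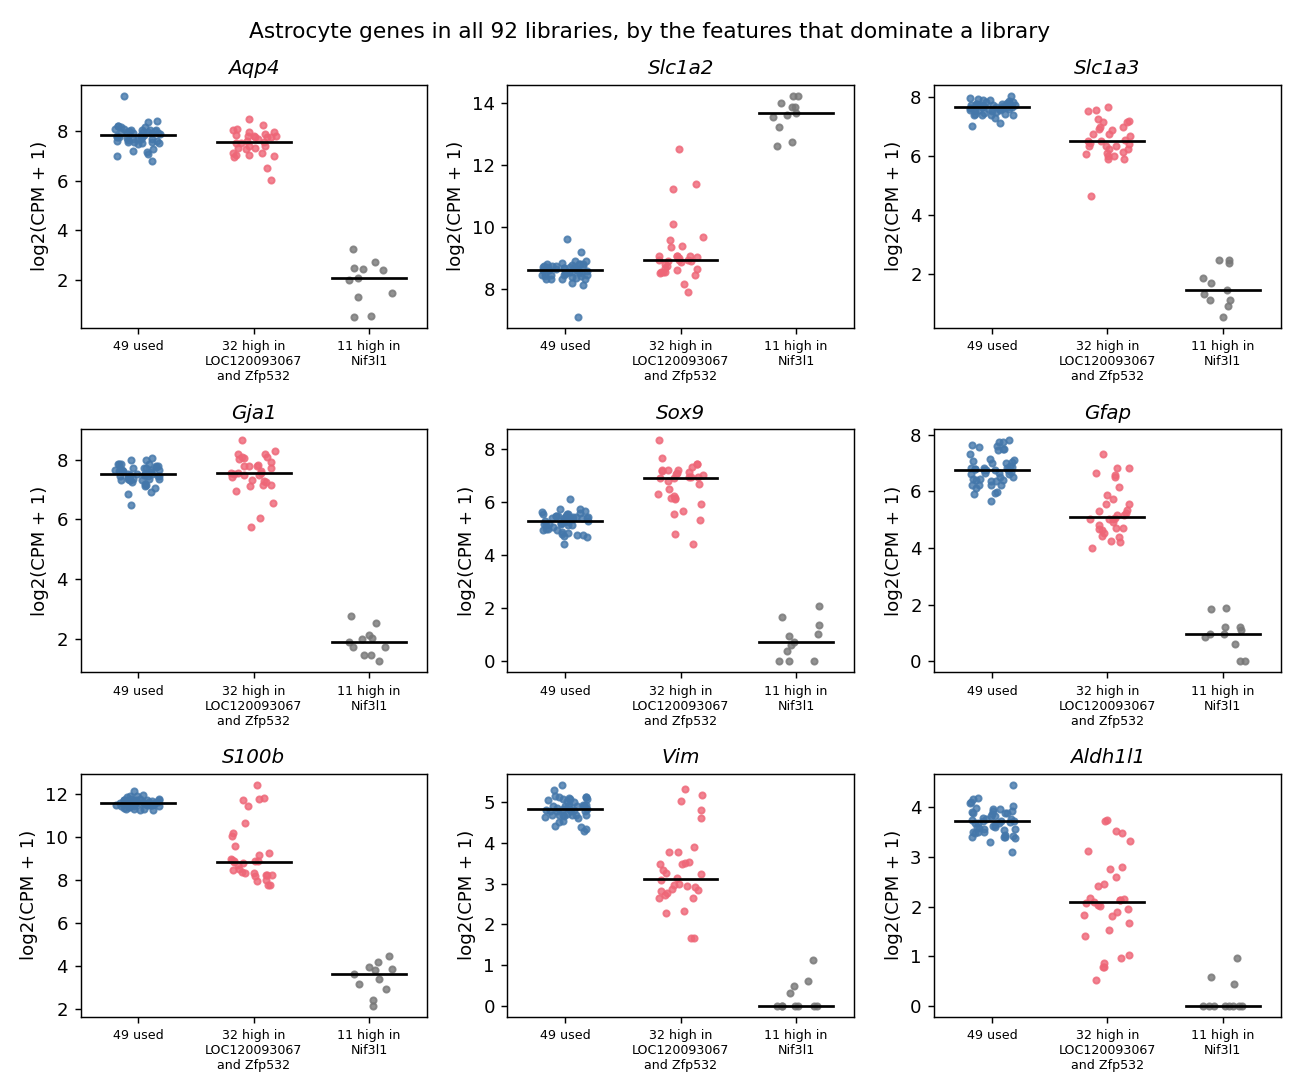
Level of the 9 genes, log2(CPM + 1), in the 49 used libraries, the 32 high in LOC120093067 and Zfp532 and the 11 high in Nif3l1; each point is 1 library, bars are medians and each panel has its own vertical axis. In the 11 libraries every gene but Slc1a2 is close to 0 or far below the 49, and Slc1a2 is far above them.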

How the data were processed

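The authors deposited 1 table of log2 values for 92 libraries. Judged from the numbers, a value is the log2 of 1 plus the estimated count of a gene: after back-transformation, 49.98% of values between 0 and 20 lay within 0.01 of a whole number. Depth and transcript length are still in these deposited values. The submitters' processing notes name kallisto 0.48; the genome build is not given in the sources used here, and the position listed for each of the 9 genes equals an end of that gene in RefSeq GRCr8. Of 93 labelled samples 1 is without a column and was left aside, as was Ccdc153; every column was mapped to a sample.

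Counts were recovered, divided by the library total, multiplied by 1000000 (CPM) and log2-transformed with a pseudocount of 1. The 18749 genes that reached a log2 level of 1 in 20% or more of the 49 libraries were tested. Slopes and series were tested with limma 3.58.1 (moderated statistics with a mean trend) in R 4.3.3, after a check on simulated data; adjusted p-values are Benjamini-Hochberg over all genes within each fit, with a threshold of 0.05. A slope is the change in log2 level per SD of the predictor. Permutation tests of correlations are two-sided with 100000 permutations (Python 3.11.15, numpy 2.4.6). In total, 36 pairs, 81 gene and score combinations and 27 gene and measure combinations were examined. Named genes are, for each of the 9 fits, the 3 called genes of highest r and the 1 of lowest r with the same sign in all 5 series, and the 10 genes that rose in the most fits, leaving out genes known only by a locus or clone identifier. One gene that this rule names is not reported here. The 9 genes, the lists and the limits on libraries were chosen with earlier results of these data known. Alternatives covered scaling, pseudocount, filter, covariates (series, depth, Xist and Ddx3y, cell type scores), the mean trend, ranks and the libraries used.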

Additional observations from a re-analysis of the deposited data

Results flagged for a closer look

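Slc1a2 in series F held 1 library far from the other 6: its level was 479.8 CPM, against a series median of 405.2 CPM, and its gap to the nearest library was 0.569 of the range of the 7. The gap was examined in 27 groups of 4 to 10 libraries (9 genes in series B, E and F), this was the 1 that exceeded Dixon's 95% critical value, and chance flags about 1 group in 20.

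Slc1a2 had a median of 13139 CPM in the 11 libraries high in Nif3l1, which the comparisons do not use, against 390.7 CPM in the 49 libraries used. The other 8 genes were lower in those 11 libraries than in the 49.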

How the results depend on the processing

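Within the 49 libraries, 15 alternative settings left 7 to 13 of the 36 pairs called (9 as reported), and the 7 pairs other than Sox9 with Aqp4 and Sox9 with Slc1a2 were called in all of them. Gene and score combinations numbered 12 as reported and 7 with Xist and Ddx3y as covariates; the other settings gave 8 to 18. No slope that was called changed sign within the 49. Without the library of lowest Slc1a2, 2 gene and measure combinations were called, against 4 as reported. Taking all 92 libraries gave 36 pairs (28 positive), 80 score combinations, 16 measure combinations and 7 genes that differed between series, against 9, 12, 4 and 0 as reported. The 32 libraries high in LOC120093067 and Zfp532 gave 17 pairs (14 positive, 4 of them among the 9 reported), 45 score and 19 measure combinations. Over all 92 libraries slopes turned to -1.48 (Slc1a2 on Aqp4), -1.77, -1.63 and -1.37 (Slc1a3, Gja1 and Sox9 on Slc1a2), 1.44, 0.63 and 1.44 (Sox9 on the neuron, immediate early and glucocorticoid target scores), 0.053 (Slc1a3 on log2 of the percent of LOC120093067 and Zfp532) and 0.48 (Aqp4 on long neuronal minus respiratory chain genes). Over the 92 the slope of Slc1a3 on that percent did not pass (adjusted p = 0.836, limma), whereas the other reversed slopes did. Over the 32, slopes turned to -0.13 for Slc1a3 on Slc1a2 (adjusted p = 0.809, limma). Those of Sox9 on the same 3 scores turned to 0.14, 0.16 and 0.38 (adjusted p = 0.376, 0.312 and 0.02, limma). Those of Aqp4 and Slc1a2 on long neuronal minus respiratory chain genes turned to 0.29 and 0.21 (adjusted p = 0.00284 and 0.253, limma). The cause was not tested. Counts of all genes called moved by over 1.5 times in some setting for every predictor except long neuronal minus respiratory chain genes. With Xist and Ddx3y as covariates 204 genes were called on Gfap (1208 as reported), 105 between series (320), 2727 on the oligodendrocyte score (4547) and 115 on the neuron score (1187). Without the 5 libraries least correlated with the others the counts were 2590 on Aqp4 (6626), 1152 on Slc1a2 (6820), 2723 on Slc1a3 (5676), 2625 on Gja1 (5912), 3896 on S100b (1417), 1139 on the microglia score (531) and 509 on that of oligodendrocyte precursors (175). Without the library of lowest Slc1a2 they were 1477 on the score of oligodendrocyte precursors (175) and 879 on the glucocorticoid target score (561). With the neuron and oligodendrocyte scores as covariates they were 9 on Sox9 (2687), 645 on the endothelial and mural score (2907) and 2263 on log2 of the percent of LOC120093067 and Zfp532 (4441). In that setting the fits on the neuron or the oligodendrocyte score itself carry only the other score as a covariate. With series as a covariate they were 70 on the immediate early score (2852), 44 on the glucocorticoid target score (561) and 0 on the fibroblast score (8), with 895 at an unadjusted p under 0.05 by limma. Median-of-ratios scaling gave 0 on Aldh1l1 (571; 2700 at an unadjusted p under 0.05 by limma), 88 on Vim (1), 629 on the ependymal score (0) and 0 on log10 of the library total (2; 1726 at an unadjusted p under 0.05 by limma), and moved the rising share of calls to 48.2% on the oligodendrocyte score (63.7%), 72.6% on the microglia score (86.1%), 62.3% on the endothelial score (75.6%), 46.9% on the neuron score (65.04%), 66.2% on the glucocorticoid score (81.6%), 53.01% on log2 of the percent of LOC120093067 and Zfp532 (33.01%) and 44.01% on long neuronal minus respiratory chain genes (72.5%). No paired analysis was possible because the labels give 1 group and no shared replicate numbers. One of the 2 libraries with a corrected identifier is among the 49, and leaving it out was a setting. The settings without the library of highest Aqp4 and without that of lowest Slc1a2 were chosen after seeing the data. Aldh1l1, at 90 counts in the lowest library, is the gene whose values depth limits most.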
